A study of Mus musculus with 188 samples.

Results

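The genes described here are those of the major histocompatibility complex (MHC) class I pathway in mouse aorta. They were chosen by symbol as the classical heavy chains H2-D1 and H2-K1, the non-classical heavy chains H2-Q10, H2-Q1 and H2-T23, the light chain B2m and the peptide transporter subunits Tap1 and Tap2. All probe sets that the array's annotation pairs with these symbols were taken, each kept apart. Of the 8 genes, 5 had a probe set, of 11725 genes with a probe set of their own on the array. They had 17 of the 22327 probe sets tested. Among the 17, 12 are annotated to 1 gene: 5 to H2-D1, 3 to H2-K1, 2 to H2-T23 and 1 each to H2-Q10 and H2-Q1. The other 5 are annotated to H2-D1, H2-K1 and LOC547349 together and are called shared probe sets below. No probe set carries the symbol B2m, Tap1 or Tap2 in that annotation, so those 3 genes were not analysed here. Other annotations may name some probe sets differently, so these genes may still be measured under another symbol.

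Aorta of 94 strains of a hybrid mouse diversity panel was profiled on 188 Affymetrix HT_MG-430A arrays. All animals were males of 16 weeks, untreated and fed chow, and all carry the genotype label wild-type. There were 28 AXB/BXA strains (59 arrays), which descend from A/J and C57BL/6J, 28 BXD strains (53 arrays) from DBA/2J and C57BL/6J, 10 BXH strains (21 arrays) from C3H/HeJ and C57BL/6J, and 28 other inbred strains (55 arrays), the 4 parents among them. A strain had 1 to 4 arrays, most often 2. The values are log2 expression after robust multi-array averaging (RMA), so a difference of 1 is a doubling of signal. Whether the replicate arrays of a strain were separate animals is not given in the labels. The p-values of tests on arrays therefore rest on array-to-array spread alone, part or all of which could be technical. Those of the haplotype comparisons below, fitted on strain means, rest on the spread between strains. BXD32/TyJ, whose descriptions carry a suffix that is not explained, was left out of the main tests. By their names, BXD29-Tlr4<lps-2J>/J and BXD24/TyJ-Cep290<rd16>/J carry mutant alleles of Tlr4 and Cep290, despite that genotype label.

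A class I molecule is a heavy chain paired with beta-2 microglobulin, the product of B2m. It carries a peptide that the TAP transporter has brought into the endoplasmic reticulum, and shows it at the cell surface to CD8 T cells or natural killer cells. In the mouse the heavy chains lie in the H2 complex on chromosome 17, where the classical genes differ in sequence between the haplotypes carried by inbred strains. Array probes were designed on particular reference transcripts, and RNA that differs from a probe in sequence binds it less. On this array a change in transcript amount and a change in probe binding cannot be told apart, and for that reason the probe sets of each gene are set beside each other. An identifier ending in _x_at marks a probe set that may also bind related sequences. In bulk tissue, fewer cells of a type and less RNA per cell cannot be told apart either.

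The tissue label was checked against marker genes. Acta2, of smooth muscle, averaged 12.42 over the 188 arrays and never fell below 11.05. Ucp1, of brown adipocytes, averaged 12.67, with a lowest value of 9.75. Markers of other tissues varied from array to array. Cd3d, of T cells, ranged from 3.22 to 11.41, Acta1, of skeletal muscle, from 3.33 to 13.34, and Krt4, of squamous epithelium, from 2.76 to 12.89. Array medians lay between 4.55 and 4.88. Array titles fall into 2 runs of numbers, up to 1038 and from 1067. In the first run are replicates 1 and 2 of C57BL/6J and all arrays of the other 3 parents, and C57BL/6J replicate 3 is in the second.

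The arrays of a strain differed by more than 2 on the log2 scale on at least 1 class I probe set in 19 of the 85 strains with several arrays, and in 7 of these only on H2-Q1. After the values were seen, 4 of the 19 were singled out. They were BXD19/TyJ, BXA16/PgnJ and BXA2/PgnJ, with at least 3 class I probe sets that differed so, and KK/HlJ, where a shared probe set alone did. Of the rest, BXA14/PgnJ differed by 3.77 on H2-Q10 and BXH20/KccJ by 2.29 on 1452544_x_at. For the H2-D1 probe set 1452544_x_at, the 4 arrays of BXD19/TyJ read 11.34, 10.22, 3.23 and 3.40. The 3 arrays of BXA16/PgnJ read 10.76, 10.51 and 3.34. In both strains H2-Q10 ran the other way, at 3.78, 4.06, 8.31 and 8.35 in BXD19/TyJ and at 3.57, 3.75 and 9.57 in BXA16/PgnJ. The disagreement in these strains was not limited to the H2 genes. Among 82 other probe sets with strong strain differences (intraclass correlation over 0.8), BXD19/TyJ replicates 1 and 2 differed by more than 2 on the log2 scale at 0, replicates 3 and 4 at 1, and each of the first pair from each of the second at 12 to 15. In BXA16/PgnJ, replicates 1 and 2 differed at 1, and replicate 3 differed from them at 18 and 17. In the other 82 strains with several arrays the median of this count was 0 and the highest was 9. BXA2/PgnJ, at 7.85 and 3.70 for 1452544_x_at, differed at 1 of the 82, and KK/HlJ, at 10.57 and 6.98 for the shared probe set 1451683_x_at, at 3. The intraclass correlations that these 4 strains moved most are given with and without them. Why their arrays differed was not tested.

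**Figure D1:**
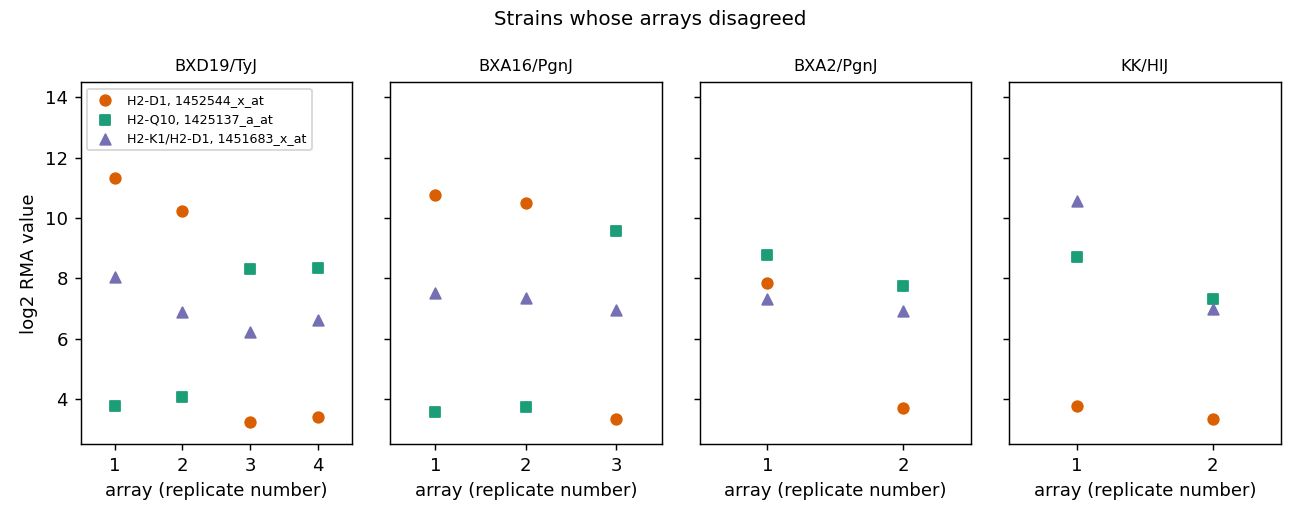
Log2 RMA values (y axis) of H2-D1 1452544_x_at (circles), H2-Q10 (squares) and the shared probe set 1451683_x_at (triangles) in each array (x axis, replicate number) of the 4 strains singled out for arrays that disagreed. In BXD19/TyJ and BXA16/PgnJ the arrays whose circles lie between 3.23 and 3.40 have squares between 8.31 and 9.57, and in KK/HlJ the triangles lie furthest apart, at 10.57 and 6.98.

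The first question was how far each class I probe set differs between strains. The strain effect was tested in the 84 strains with at least 2 arrays (177 arrays, BXD32/TyJ left out), with limma's F-test and Benjamini-Hochberg adjustment over all 22327 probe sets. It was past an adjusted p of 0.05 for 15 of the 17 class I probe sets, against 46.5% of all probe sets. The intraclass correlation (variance between strains over total variance) had a median of 0.18 over all probe sets. It reached 0.98 (95% interval 0.96 to 0.98) for H2-D1 1450170_x_at, 0.89 for H2-D1 1427651_x_at and 1452544_x_at and for the shared probe set 1425614_x_at, and 0.82 for H2-Q10. The probe sets without a called strain effect were H2-Q1 1418734_at (intraclass correlation 0.13, adjusted p = 0.131) and H2-K1 1450534_x_at (0.15, adjusted p = 0.125). Ranked by the standard deviation of strain means, 1452544_x_at, 1427651_x_at and 1425614_x_at were the 1st, 2nd and 3rd of all 22327 probe sets, and H2-Q10 was the 37th.

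The largest ranges between strains belonged to probe sets that were bimodal over strains. The lowest strain mean of H2-D1 1452544_x_at was 3.20, in AXB6/PgnJ, the median 3.67 and the highest 10.83, in AXB12/PgnJ. H2-D1 1427651_x_at spanned 3.23 in BXA1/PgnJ to 10.55 in AXB12/PgnJ, and 1425614_x_at spanned 3.30 in BXD2/TyJ to 10.78 in BXD22/TyJ. These 3 probe sets were high and low in the same strains, and over the 84 strain means 1452544_x_at had a Pearson correlation of 0.999 with 1427651_x_at and of 0.997 with 1425614_x_at. All such correlations here share their arrays and strains that are related by descent, so they are descriptions only. When the strains were put in order, most neighbours could not be separated. Of the 92 steps between neighbouring strain means, 4 exceeded the within-strain standard deviation for 1452544_x_at, 2 for 1450170_x_at, 1 for H2-Q10 and 0 for H2-T23 1449556_at. That standard deviation was taken without the 4 disagreeing strains, and was 0.33 for 1452544_x_at. Without those strains the intraclass correlation of 1452544_x_at was 0.99, that of H2-Q10 was 0.92 and that of the shared 1451683_x_at was 0.88, against 0.82 with them.

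**Figure D2:**
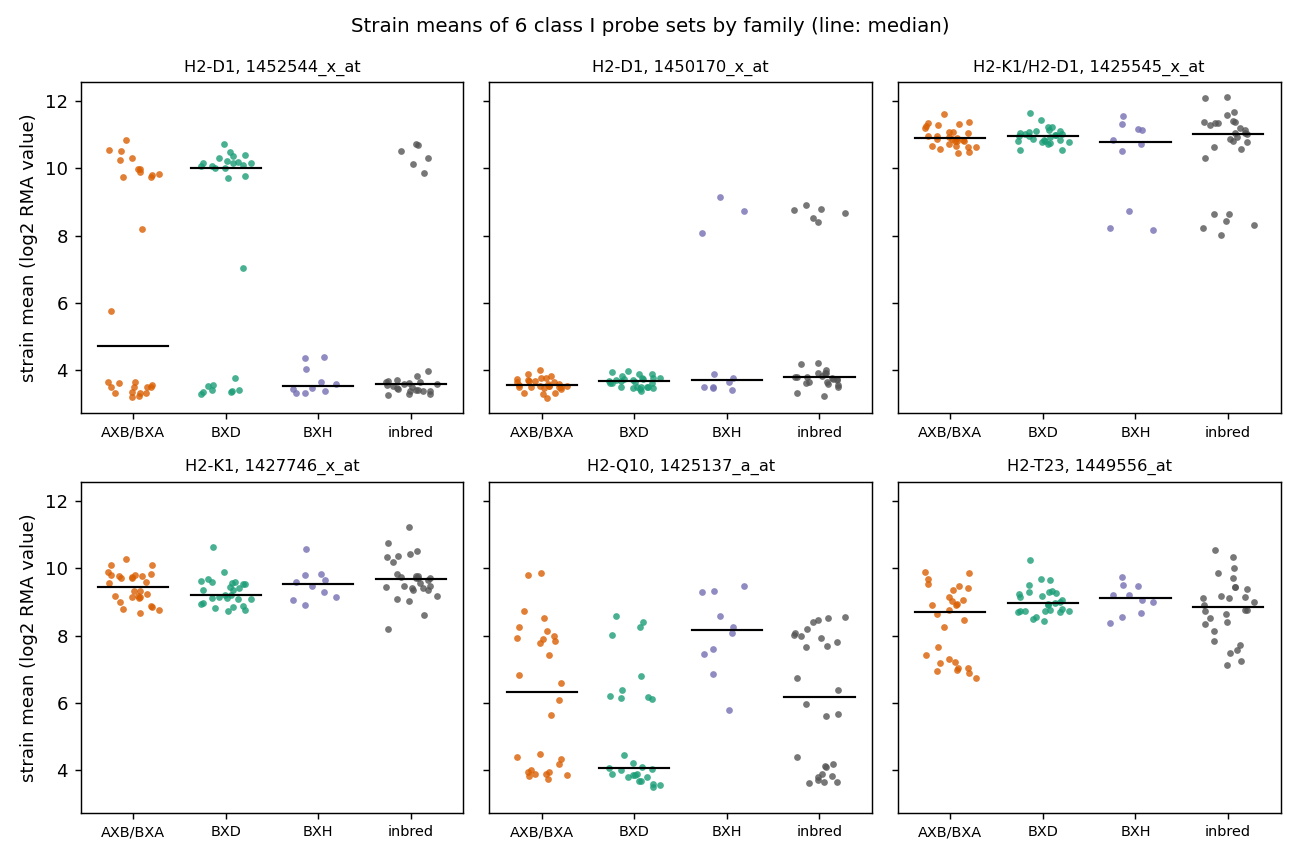
Strain means (y axis, log2 RMA values) of 6 class I probe sets in the AXB/BXA, BXD and BXH families and the other inbred strains (x axis); each point is a strain and each line the family's median. H2-D1 1452544_x_at splits into strains at 4.39 or below and at 9.71 or above, with 3 AXB/BXA and BXD strains between, H2-D1 1450170_x_at is high in 3 BXH and 6 inbred strains, and H2-K1 1427746_x_at forms a single cloud.

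The H2-D1 product is a classical heavy chain of most nucleated cells. Its probe sets 1427651_x_at and 1452544_x_at, and the shared 1425614_x_at, were high in A/J and DBA/2J and low in C57BL/6J and C3H/HeJ. The A/J arrays read 10.26 and 10.01 for 1452544_x_at, the DBA/2J arrays 10.37 and 10.25, the C3H/HeJ arrays 3.39 and 3.91, and the C57BL/6J arrays 4.96, 3.69 and 3.26. Every A/J and DBA/2J array lay above every C57BL/6J array. For 1427651_x_at the A/J arrays read 9.78 and 9.65 and the DBA/2J arrays 10.16 and 9.91, against 4.58, 3.89 and 3.44 in C57BL/6J. For 1425614_x_at the A/J arrays read 9.71 and 9.56 and the DBA/2J arrays 10.13 and 9.68, against 4.25, 3.65 and 3.76 in C57BL/6J. The groups did not overlap for either. All 3 comparisons with C57BL/6J used its same 3 arrays, in 1 limma fit over 93 strains.

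In A/J, 1452544_x_at was higher by 6.17 ± 0.98 on the log2 scale (SE; limma, adjusted p = 9.05e-06), 1427651_x_at by 5.74 ± 0.91 and 1425614_x_at by 5.75 ± 0.90. In DBA/2J they were higher by 6.34, 6.06 and 6.02 (limma, adjusted p = 4.03e-06, 2.07e-06 and 1.59e-06). The SE in this fit came from the array spread of all 93 strains, those with disagreeing arrays included. Without the 4 strains singled out after the values were seen, the A/J difference of 1452544_x_at was again 6.17 (limma, adjusted p = 6.46e-32). The low groups of these comparisons read near or below the array medians, and the files hold no detection calls. Each difference is therefore best read as a minimum difference in signal on that probe set, not in transcript amount. The same holds for 1450170_x_at and H2-Q10 below. On H2-D1 1451784_x_at the means were 10.63 in A/J, 10.95 in DBA/2J and 10.92 in C57BL/6J, and neither comparison passed. In A/J 4 of the 17 class I probe sets passed the test, 3 higher and 1 lower, against 0.645% of all probe sets (0.269% higher and 0.376% lower). In DBA/2J 4 passed, again 3 higher and 1 lower, against 0.524% of all (0.287% higher and 0.237% lower). The 1 that fell in each was H2-Q10. Within the first run of array numbers, 1452544_x_at differed by 5.81 between A/J and C57BL/6J and by 5.99 between DBA/2J and C57BL/6J (2 arrays a strain). In a fit of the A/J and C57BL/6J arrays alone, 2 of the 4 A/J calls held, and 1452544_x_at had an adjusted p of 0.053.

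**Figure D3:**
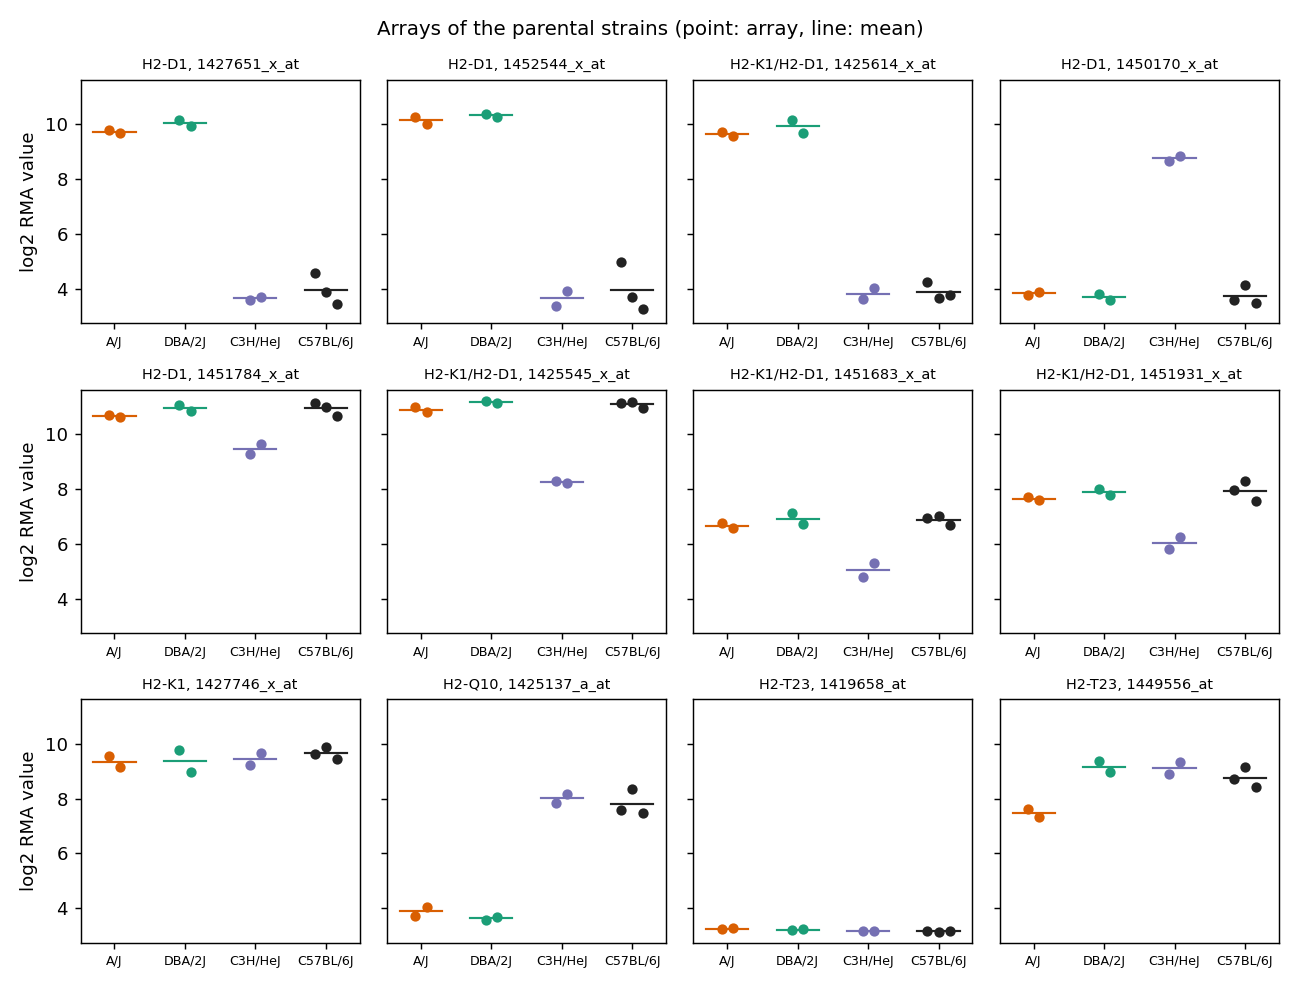
Log2 RMA values (y axis) of 12 class I probe sets in the A/J, DBA/2J, C3H/HeJ and C57BL/6J arrays (x axis); points are arrays and lines strain means. A/J and DBA/2J stand above 9.5 and C57BL/6J below 5 on 1427651_x_at, 1452544_x_at and 1425614_x_at, and C3H/HeJ stands alone at 8.66 and 8.85 on 1450170_x_at and below the others on 4 further probe sets.

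The recombinant families showed the same high and low levels. In AXB/BXA, 12 strains were nearer A/J on 1452544_x_at in every array, with means of 9.75 to 10.83. Another 14 were nearer C57BL/6J, with means of 3.20 to 3.66, and BXA16/PgnJ and BXA2/PgnJ had arrays on both sides. In BXD, 17 strains were nearer DBA/2J (9.71 to 10.72), 9 nearer C57BL/6J (3.31 to 3.77), and BXD19/TyJ was split. No BXH strain was high, their highest mean being 4.39 in BXH20/KccJ. No strain of AXB/BXA or BXD with agreeing arrays lay between 3.77 and 9.71. The 3 probe sets put each strain on the same side in all 26 strains of AXB/BXA, and in all 26 of BXD, that were split on none of the pair compared.

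Differences between strains within a family were tested in the same way over the strains with 2 or more arrays. In AXB/BXA (27 strains, 58 arrays) 5 of the 17 class I probe sets passed, against 3.81% of all probe sets. They were the 3 above (intraclass correlation 0.87 to 0.88, with an adjusted p of 2.66e-09 for 1452544_x_at), H2-Q10 and H2-T23 1449556_at. Without BXA16/PgnJ and BXA2/PgnJ the intraclass correlation of 1452544_x_at in AXB/BXA was 0.99. In BXD (22 strains, 46 arrays) 4 passed, against 15.1% of all, the same 3 (0.79 to 0.80, adjusted p = 9.94e-06 for 1452544_x_at) and H2-Q10. Without BXD19/TyJ the intraclass correlation of 1452544_x_at was 0.996 and the count in BXD was 7, with the shared probe set 1426324_at (adjusted p = 0.00317), H2-K1 1424948_x_at (0.0139) and H2-T23 1449556_at (0.0288) added. In BXH (9 strains, 20 arrays) 7 passed, against 1.26% of all. Those 7 were a different set, described next, plus H2-Q10.

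In C3H/HeJ another H2-D1 probe set, 1450170_x_at, was the high one. Its arrays read 8.66 and 8.85 in C3H/HeJ, against 3.58, 4.13 and 3.48 in C57BL/6J, and A/J and DBA/2J averaged 3.84 and 3.70. It rose by 5.02 ± 0.22 on the log2 scale (SE; limma, adjusted p = 9.1e-36). Over all strains it was high in 9 and low in the rest. The 9 were AKR/J, C3H/HeJ, C58/J, CBA/J, CE/J, MA/MyJ, BXH2/TyJ, BXH6/TyJ and BXH7/TyJ, with means of 8.09 to 9.14, and the next strain, SWR/J, was at 4.21.

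In those 9 strains 3 further probe sets were low. The shared probe set 1425545_x_at read 8.28 and 8.19 in C3H/HeJ, against 11.11, 11.16 and 10.92 in C57BL/6J, a difference of -2.83 ± 0.30 (SE; limma, adjusted p = 1.04e-11). H2-D1 1451784_x_at read 9.25 and 9.64 in C3H/HeJ, against 11.13, 10.99 and 10.65 in C57BL/6J, a difference of -1.48 ± 0.30 (limma, adjusted p = 0.00138). The shared 1451931_x_at read 5.80 and 6.23 in C3H/HeJ, against 7.94, 8.28 and 7.56 in C57BL/6J, a difference of -1.91 ± 0.37 (limma, adjusted p = 0.000463). On each of the 3 the groups did not overlap, and the 9 lowest strains of the whole panel were the same 9 strains that were highest on 1450170_x_at. The step from the 9th to the 10th strain, BXH2/TyJ at 8.72 to NZW/LacJ at 10.31, was the largest of the 3, for 1425545_x_at.

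Another 2 shared probe sets were lower in C3H/HeJ. They were 1451683_x_at, at 4.77 and 5.31 in C3H/HeJ against 6.94, 7.0 and 6.68 in C57BL/6J (-1.83 ± 0.42; limma, adjusted p = 0.00714), and 1426324_at, at 4.05 and 4.35 in C3H/HeJ against 5.70, 6.07 and 5.20 in C57BL/6J (-1.45 ± 0.38; limma, adjusted p = 0.0275). The rest of the 9 strains were low on both too. Their means reached at most 5.19 on 1451683_x_at and 4.62 on 1426324_at, against panel medians of 6.73 and 5.86. In all, 6 of the 17 passed in C3H/HeJ, 1 higher and 5 lower, against 1.25% of all probe sets (0.511% higher and 0.735% lower). Only 1450170_x_at and 1425545_x_at of the 6 passed without C3H/HeJ replicate 1, and only those 2 in a fit of C3H/HeJ and C57BL/6J alone. For 1426324_at the call was also lost without C3H/HeJ replicate 2, C57BL/6J replicate 1 or C57BL/6J replicate 2, and for 1451683_x_at without C3H/HeJ replicate 2 or C57BL/6J replicate 2. No call was lost without C57BL/6J replicate 3, the array of the second run.

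In BXH, BXH2/TyJ, BXH6/TyJ and BXH7/TyJ lay on the C3H/HeJ side of all 6 of these probe sets and the other 7 strains on the C57BL/6J side. The 3 strains had means of 8.09 to 9.14 on 1450170_x_at and of 8.16 to 8.72 on 1425545_x_at. The 7 had means of 3.42 to 3.89 and of 10.51 to 11.56. All 6 passed the test of differences between BXH strains, with intraclass correlations of 0.86 for 1426324_at to 0.98 for 1450170_x_at (limma, adjusted p = 0.00341 and 2.55e-07).

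Inbred strains were next compared by H2 haplotype. Haplotypes were assigned from general knowledge of these strains, not from the labels: H2-k for AKR/J, C3H/HeJ, C58/J, CBA/J, CE/J and MA/MyJ, H2-d for BALB/cJ, DBA/2J and SEA/GnJ, H2-q for BUB/BnJ, FVB/NJ and SWR/J, and H2-b for 129X1/SvJ, BTBR T<+> tf/J, C57BL/6J, C57L/J and LP/J. A/J, a recombinant haplotype that joins H2-k at the H2-K1 end to H2-d at the H2-D1 end, was placed in no group. Strain means entered the fit, so each strain counted once, and all 3 comparisons share the 5 H2-b strains.

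The H2-k strains differed from H2-b on 1450170_x_at, with 8.68 ± 0.19 in the 6 H2-k strains and 3.74 ± 0.17 in the 5 H2-b strains (SD; limma, adjusted p = 5.05e-13). The difference was -2.72 for 1425545_x_at, -2.28 for 1451683_x_at, -2.14 for 1451931_x_at and -1.74 for H2-D1 1451784_x_at, all lower in the H2-k strains. In all, 5 of the 17 class I probe sets passed in this comparison, against 0.0314% (7) of all 22327. Of them 1 was higher and 4 were lower, against 0.00896% higher and 0.0224% lower of all. The H2-d strains differed on the other 3 probe sets, with 10.52 ± 0.21 in the 3 H2-d strains and 3.60 ± 0.29 in the H2-b strains for 1452544_x_at (SD; limma, adjusted p = 1.84e-13). The differences were 6.46 for 1427651_x_at and 6.43 for 1425614_x_at, and these 3 of the 17 were the class I calls, all higher, against 0.0224% (5) of all, which were also higher. On all 3, as on 1450170_x_at, no H2-q strain left the H2-b level by more than 1 on the log2 scale.

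In H2-q 0 of the 17 passed limma's test, against 0.0224% (5) of all probe sets (0.0134% higher and 0.00896% lower). Leaving out each H2-q and H2-b strain in turn also gave 0. Among the 17 the largest differences by size were in H2-Q10 (-2.69, adjusted p = 0.16), 1426324_at (1.22) and H2-T23 1449556_at (-1.16), and H2-K1 1424948_x_at and 1427746_x_at were higher in H2-q by 0.98 and 0.99 (adjusted p = 0.284). Leaving out each strain in turn gave 5 calls every time in H2-k and 3 every time in H2-d.

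**Figure D4:**
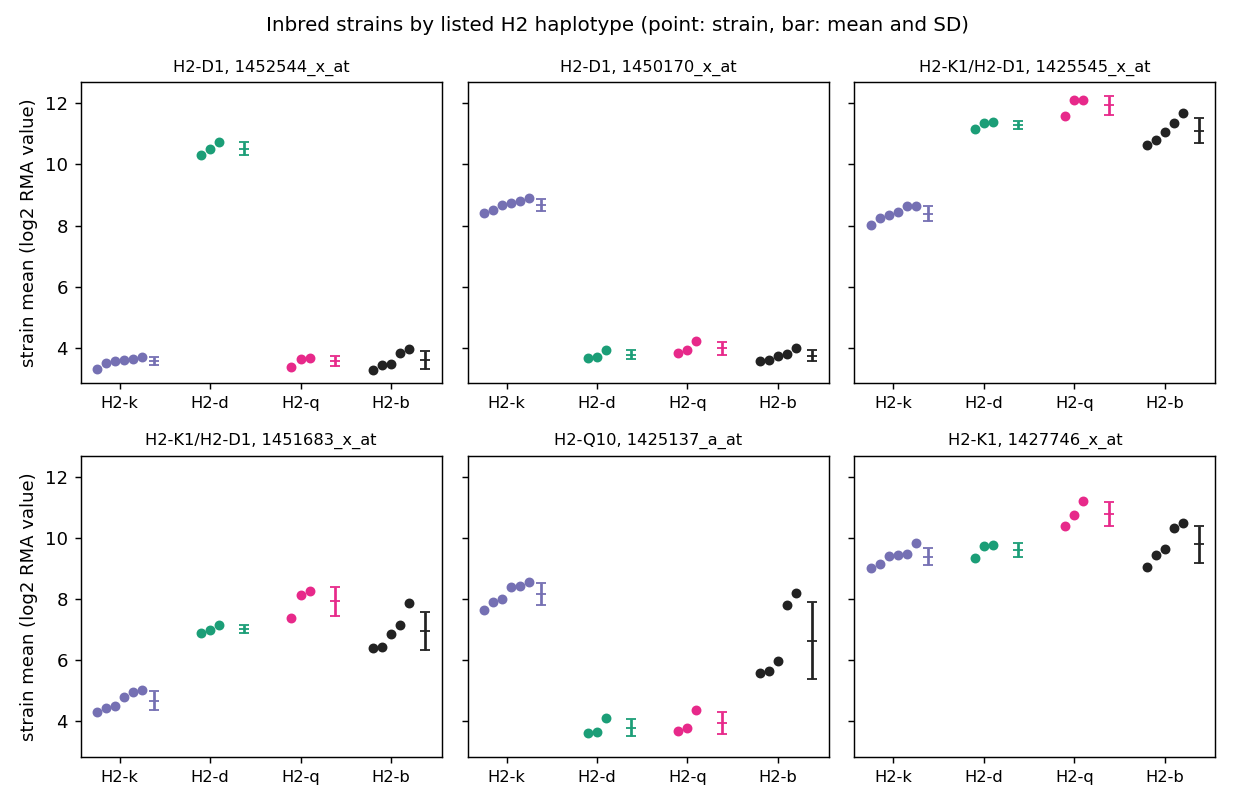
Strain means (y axis, log2 RMA values) of 6 class I probe sets in H2-k, H2-d, H2-q and H2-b inbred strains (x axis); points are strains and bars the mean and SD. H2-d stands apart on 1452544_x_at (10.52 against 3.60 in H2-b), H2-k on 1450170_x_at (8.68 against 3.74), and the 5 H2-b strains are spread on H2-Q10 between 5.60 and 8.20.

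Of the inbred strains outside these groups, 3 were also high on 1452544_x_at. The arrays of LG/J read 10.56 and 10.83 and those of PL/J 9.76 and 9.98, beside A/J above. With BALB/cJ, DBA/2J and SEA/GnJ they made up the 6 high inbred strains of 28. Other probe sets picked out other strains. The shared 1451683_x_at was highest in SJL/J (10.96 and 11.26), RIIIS/J (10.51 and 10.57) and SM/J (10.61 and 9.47), against a panel median of 6.73. H2-D1 1451934_at, which had a median of 3.16, was highest in SM/J (6.91 and 4.95). A score of T cell and thymus markers (mean deviation from the panel mean over 8 of 9 listed genes) was 2.77 and 4.07 in SJL/J, 5.08 and 5.28 in RIIIS/J, and 3.85 and -0.60 in SM/J. In KK/HlJ it was 3.01 in the array at 10.57 and -0.56 in the array at 6.98. With marker scores as covariates the strain effect of 1451683_x_at stayed past the threshold (adjusted p = 3.72e-21).

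The probe sets of 1 gene were then compared directly. For each array the difference between 2 probe sets was taken, and its strain effect tested in limma beside the same test over all 8981 pairs of probe sets that share a single symbol. If the probe sets of a gene varied alike and to the same extent, this difference would not vary between strains. It varied in 13 of the 14 pairs of class I probe sets, against 30.6% of all pairs, and in all 10 pairs of H2-D1. In 7 of the 14 pairs 1 probe set, 1451934_at, 1450534_x_at or 1419658_at, had strain means above 5 in at most 1 strain, so their difference mostly repeats the other probe set. Of the remaining 7, chosen after the values were seen, 6 varied, all 6 of them pairs of H2-D1. Among the 6 was 1427651_x_at with 1452544_x_at (intraclass correlation 0.63; limma, adjusted p = 3.57e-10), although their Pearson correlation was 0.999. A called difference can thus also come from probe sets that follow 1 pattern over unlike ranges, and the counts do not separate the 2 cases. Relative to C57BL/6J, 6 of the 14 differences changed in A/J, 6 in DBA/2J and 5 in C3H/HeJ, against 0.668%, 0.69% and 1.65% of all pairs, and each of these was a pair of H2-D1. Among the 7 remaining pairs the counts were 4, 4 and 3. For 1427651_x_at minus 1450170_x_at the change relative to C57BL/6J was 5.64 in A/J, 6.09 in DBA/2J and -5.33 in C3H/HeJ (limma, adjusted p = 4.29e-06, 3.86e-07 and 1.15e-05). Thus 1 probe set of H2-D1 called the gene higher in A/J and DBA/2J, and the other called it higher in C3H/HeJ. For 1450170_x_at minus 1451784_x_at the change was 6.50 ± 0.30 in C3H/HeJ (SE; limma, adjusted p = 1.28e-34), since the 2 moved in opposite directions there. Over 84 strains 1450170_x_at had a Pearson correlation of -0.90 with the shared 1425545_x_at, but a Spearman correlation of 0.06, so that the relation rests on the 9 strains. H2-D1 1451784_x_at and 1425545_x_at had a Pearson correlation of 0.97.

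H2-K1 encodes the other classical heavy chain of this panel, and its probe sets varied less between strains than the bimodal H2-D1 probe sets. By the standard deviation of strain means, 1427746_x_at ranked 3046th and 1424948_x_at 4564th of all 22327. The A/J arrays read 9.55 and 9.14 for 1427746_x_at, the DBA/2J arrays 9.77 and 8.96, the C3H/HeJ arrays 9.23 and 9.66, and the C57BL/6J arrays 9.62, 9.88 and 9.42. The groups overlapped, and no H2-K1 probe set passed in any parental comparison. Strain means ran from 8.19 in NZW/LacJ through a median of 9.46 to 11.21 in SWR/J, whose arrays read 11.16 and 11.26. The intraclass correlation was 0.43 (limma, adjusted p = 3.87e-05) for 1427746_x_at and 0.47 (adjusted p = 5e-06) for 1424948_x_at. NZW/LacJ and SWR/J were the extremes for both. These 2 probe sets varied together (Pearson 0.98 over 84 strains), and the difference between them was the 1 pair of 14 with no called strain effect (intraclass correlation 0.01, adjusted p = 0.733). The third, 1450534_x_at, stayed between 3.31 and 4.35, and each of its differences from the other two was called (adjusted p = 0.00392 and 0.00413). Over 188 arrays 1427746_x_at had a Pearson correlation of 0.51 with the macrophage marker score and 0.46 with the B cell score. For 1452544_x_at of H2-D1 no marker score exceeded 0.24 in size. The part of those cells in the H2-K1 differences was not tested beyond the fit with T cell, squamous epithelium and skeletal muscle scores, in which both calls held.

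H2-Q10 encodes a class I heavy chain known in the mouse for its secretion by the liver. It was low in A/J and DBA/2J and high in C3H/HeJ and C57BL/6J. Its probe set 1425137_a_at read 3.74 and 4.05 in A/J, 3.58 and 3.70 in DBA/2J, 7.82 and 8.18 in C3H/HeJ, and 7.58, 8.35 and 7.48 in C57BL/6J. Every A/J and DBA/2J array lay below every C57BL/6J array, and C3H/HeJ overlapped C57BL/6J. The difference from C57BL/6J was -3.91 ± 0.81 in A/J and -4.16 ± 0.81 in DBA/2J (SE; limma, adjusted p = 0.00178 and 0.000586), and 0.20 in C3H/HeJ (adjusted p = 0.95). Without A/J replicate 1 the A/J difference was -3.76, with an adjusted p of 0.122, and in the fit of A/J and C57BL/6J alone the adjusted p was 0.0519. Of the 6 listed hepatocyte markers 5 were measured, and Alb ranged from 2.81 to 12.74 over the arrays. Their score had a Pearson correlation of 0.20 with H2-Q10 over 188 arrays, the largest of the 10 marker scores, followed by skeletal muscle at 0.12. The part of hepatocyte RNA in H2-Q10 was not tested.

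The level of H2-Q10 ran against that of the H2-D1 probe set 1452544_x_at in AXB/BXA and BXD. In AXB/BXA, 12 strains lay on the A/J side at 3.73 to 4.47 and 14 on the C57BL/6J side at 6.59 to 9.86. In BXD, 17 lay on the DBA/2J side at 3.49 to 4.45 and 8 on the C57BL/6J side at 6.14 to 8.57. The side matched that of 1452544_x_at in 25 of 25 AXB/BXA strains and 25 of 25 BXD strains split on neither. The strain effect within families was called in AXB/BXA (intraclass correlation 0.74, limma adjusted p = 2.35e-05), BXD (0.71, adjusted p = 0.000283) and BXH (0.80, adjusted p = 0.0111). Without the strains whose arrays disagreed it was 0.88 in AXB/BXA and 0.94 in BXD. The BXH call was lost with marker scores as covariates (adjusted p = 0.0507). BXH strains ran from 5.79 in BXH19/TyJ to 9.47 in BXH7/TyJ although their parents were alike, at 8.0 in C3H/HeJ and 7.80 in C57BL/6J.

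Over 84 strain means, 1452544_x_at and H2-Q10 had a Pearson correlation of -0.80 and a Spearman correlation of -0.60. With H2-D1 1450170_x_at, 1451784_x_at and 1451934_at the Pearson correlations of H2-Q10 were 0.38, -0.36 and 0.03. The relation with 1452544_x_at was one-sided. All 35 strains at 9.71 or above on 1452544_x_at were at 4.47 or below on H2-Q10, whereas strains low on 1452544_x_at spanned 3.66 to 9.86. Among these, BUB/BnJ (4.38), FVB/NJ (3.70), SWR/J (3.80), NOD/ShiLtJ (3.82) and RIIIS/J (3.66) were low on both. In the inbred haplotype groups H2-Q10 averaged 8.16 ± 0.36 in H2-k, 3.80 ± 0.29 in H2-d, 3.96 ± 0.37 in H2-q and 6.65 ± 1.25 in H2-b (SD; 6, 3, 3 and 5 strains). The H2-d and H2-q strains lay below all 5 H2-b strains without overlap, but none of the 3 comparisons with H2-b passed (limma, adjusted p = 0.152 in H2-k, 0.176 in H2-d and 0.16 in H2-q). Within H2-b, C57L/J and C57BL/6J were at 8.20 and 7.80, and 129X1/SvJ, LP/J and BTBR T<+> tf/J at 5.97, 5.66 and 5.60.

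**Figure D5:**
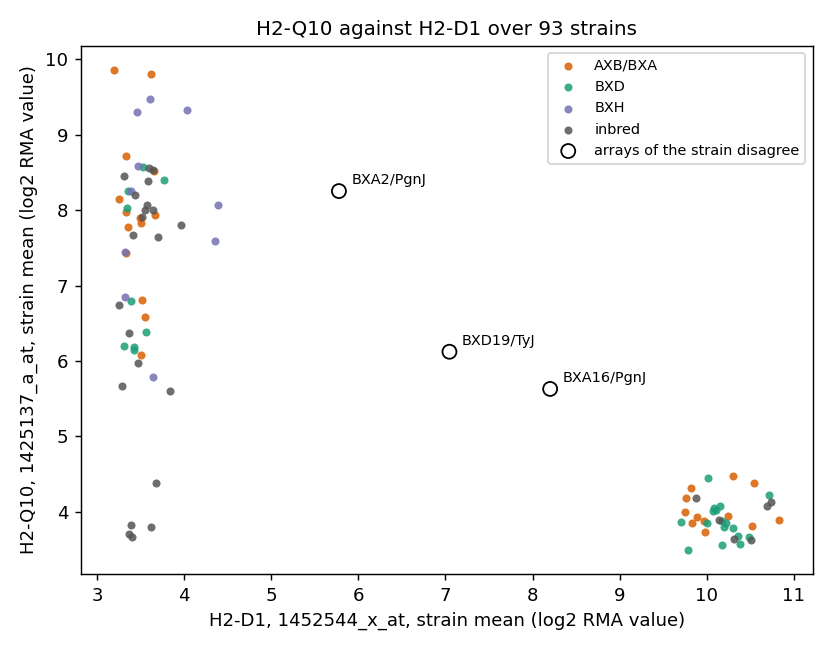
H2-Q10 (y axis) against H2-D1 1452544_x_at (x axis) as strain means (log2 RMA values) of 93 strains, coloured by family, with open circles on the 3 strains that had arrays on both sides of H2-D1. The 35 strains at the right are all at 4.47 or below on H2-Q10, and the strains at the left range from 3.66 to 9.86.

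The promoters of H2-D1, H2-K1 and H2-Q10 are shown because these genes are close relatives with different patterns over strains. The letters are those of RefSeq (GRCm38.p6), the genome of C57BL/6J, and cover 250 bases at each gene's start as RefSeq tabulates it, all on chromosome 17: chr17:35262844-35263093 on the plus strand for H2-D1, chr17:34000348-34000597 on the minus strand for H2-K1 and chr17:35469839-35470088 on the plus strand for H2-Q10. Capitals mark the longest run that H2-D1 and H2-K1 share, of 47 bases, and the window of H2-Q10 aligned with it.
H2-D1: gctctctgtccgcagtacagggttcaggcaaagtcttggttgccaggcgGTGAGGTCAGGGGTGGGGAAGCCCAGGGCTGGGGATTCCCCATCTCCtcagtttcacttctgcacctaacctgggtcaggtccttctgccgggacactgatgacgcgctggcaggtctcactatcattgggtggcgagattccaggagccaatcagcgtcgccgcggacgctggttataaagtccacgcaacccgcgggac
H2-K1: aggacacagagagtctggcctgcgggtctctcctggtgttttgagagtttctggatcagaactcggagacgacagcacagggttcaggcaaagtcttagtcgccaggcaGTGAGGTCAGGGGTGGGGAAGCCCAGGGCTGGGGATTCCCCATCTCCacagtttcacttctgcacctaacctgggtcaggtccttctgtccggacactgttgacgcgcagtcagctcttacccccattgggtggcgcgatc
H2-Q10: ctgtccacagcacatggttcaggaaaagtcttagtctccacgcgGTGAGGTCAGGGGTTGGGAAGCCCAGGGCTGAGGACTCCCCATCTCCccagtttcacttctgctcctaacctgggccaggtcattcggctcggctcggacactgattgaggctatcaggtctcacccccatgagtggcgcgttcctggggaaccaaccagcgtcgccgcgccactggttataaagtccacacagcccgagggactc
The capitals of H2-Q10 differ from the run of H2-D1 and H2-K1 by 3 substitutions, G15T, G32A and T36C, with positions counted from 1 at the 5′ end of the run. The 47-base run was found on either strand in 3 of 32851 promoter windows of the same table (0.00913%), which belong to 2 genes. The longest run common to all 3 genes, of 16 bases (gggaagcccagggctg), was found in 4 windows (0.0122%) of 3 genes and lies inside the capitals. A CCAAT motif, searched on both strands, occurred 2 times in the H2-D1 window, 1 time in H2-K1, 0 times in H2-Q10 and 1 time in the window of H2-T23, and in 33.8% of all windows. The capitals begin 201 bases before the tabulated start in H2-D1, 141 in H2-K1 and 206 in H2-Q10. The H2-K1 window therefore ends short of the stretch that the other windows reach, and its count cannot be set against theirs. A match is a description of the letters, not a site, and no promoter of another haplotype was read.

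H2-Q1 lies in the Q region beside H2-Q10. Its probe set, 1418734_at, was near the bottom of its range in most strains, with strain means of 2.62 in BXD1/TyJ, a median of 3.14 and 6.36 in SWR/J. The 4 strains with the highest means each had 1 high and 1 low array. The arrays of SWR/J read 8.71 and 4.01, those of BXH9/TyJ 7.30 and 3.28, those of BXA7/PgnJ 3.23 and 7.12, and those of BXD14/TyJ 6.75 and 3.20. The T cell and thymus score of the same arrays was 4.64 and 0.41 in SWR/J, 5.02 and -0.41 in BXH9/TyJ, -1.07 and 4.79 in BXA7/PgnJ, and 4.44 and -0.63 in BXD14/TyJ. In each of these strains, taken for their high H2-Q1, the array high in H2-Q1 was the one high in T cell markers. RIIIS/J, whose arrays scored higher on T cell markers than any of these, was not among the 4. Arrays of AXB19/PgnJ, AXB10/PgnJ, AXB19a/PgnJ, BXH22/KccJ and BXH20/KccJ also differed by more than 2 on H2-Q1, and their scores were not set beside it here. The part of T cell RNA in H2-Q1 was not tested. Over 188 arrays H2-Q1 had a Pearson correlation of 0.70 and a Spearman correlation of 0.44 with this score. With the natural killer cell score the Pearson correlation was 0.68 and the Spearman correlation 0.20. Among the markers of that score Gzma ranged from 3.10 to 8.94 over the arrays, and the others stayed at 5.28 or below. No parental comparison, family or haplotype group was called for H2-Q1, and the strain effect was not called with marker scores as covariates either (adjusted p = 0.0623).

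H2-T23 encodes the heavy chain of Qa-1, the mouse ligand of the NKG2A and CD94 receptor of natural killer cells. Its 2 probe sets showed different strain patterns. The A/J arrays read 7.61 and 7.32 on 1449556_at and the DBA/2J arrays 9.35 and 8.96, against 8.71, 9.16 and 8.42 in C57BL/6J. The A/J arrays lay below all C57BL/6J arrays, but the difference of -1.29 ± 0.49 did not pass (SE; limma, adjusted p = 0.337). Within AXB/BXA the strains separated, with 10 on the A/J side at 6.74 to 7.41, 16 on the C57BL/6J side at 8.26 to 9.88 and 2 split (intraclass correlation 0.75, limma adjusted p = 1.35e-05). The side was that of 1452544_x_at in 23 of 24 strains split on neither, and AXB12/PgnJ was the exception, at 8.14 and 8.37 on 1449556_at. Over all strains 1449556_at ran from 6.74 in AXB24/PgnJ through 8.92 to 10.55 in C57L/J.

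The other H2-T23 probe set, 1419658_at, stayed near its floor in all strains but 1. Its median strain mean was 3.27. The arrays of C57L/J read 8.81 and 6.42, for a mean of 7.61, and the next strain, BTBR T<+> tf/J, was at 4.25. The step of 3.36 between them was the only one of 92 above the within-strain standard deviation. C57L/J was highest on 1449556_at too, at 11.39 and 9.70, and its T cell and thymus scores were 4.12 and 2.89. Over 188 arrays the Pearson correlation of 1419658_at with that score was 0.42. That of 1449556_at was 0.42 as well, beside 0.48 with the B cell score, 0.45 with the natural killer cell score and 0.45 with the macrophage score. The difference 1419658_at minus 1449556_at varied between strains (intraclass correlation 0.74; limma, adjusted p = 2.2e-17). It was less negative in A/J than in C57BL/6J by 1.39, without passing the test (adjusted p = 0.121).

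Genes that work with class I were read from lists chosen with earlier results of these data known. Counts of called strain effects stand beside 46.5% of all probe sets, with 1 probe set a gene. For each listed gene this was the probe set of highest mean level, whereas the shares and medians of all probe sets include dim ones. The 2 are therefore not matched for level. Of 15 measured other class I genes, 12 had a called strain effect, with a median intraclass correlation of 0.34 against 0.18 for all probe sets. Hfe, a class I-like regulator of iron uptake, was lowest in RIIIS/J (5.62) and highest in BTBR T<+> tf/J (8.01). It was lower in A/J than in C57BL/6J, with a difference of -1.49 (limma, adjusted p = 0.000873), and in DBA/2J, with a difference of -1.12 (adjusted p = 0.0495). H2-M9 ranged from 3.85 to 7.06, H2-Q4 from 3.01 to 5.77 and Cd1d1, a lipid-presenting relative, from 8.33 to 10.83. H2-Q2, H2-M10.1 and Azgp1 were not called.

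Of the peptide loading and immunoproteasome genes, 6 of 14 were called, with a median intraclass correlation of 0.18. Among these were, as annotated, the proteasome subunits Psmb9 (4.92 in NZW/LacJ to 8.31 in RIIIS/J) and Psmb10 (6.43 to 8.76). Tapasin, Tapbp (8.65 to 10.44), which bridges TAP and the heavy chain, was another. Cd74, the class II invariant chain, ranged from 7.71 to 10.93. None of the 14 passed in any parental or haplotype comparison. Of the regulators and interferon genes, 21 of 25 had a called strain effect (median 0.24), with Irf8, a transcription factor of myeloid and B cells, ranging from 3.43 to 8.20, Socs1, an inhibitor of cytokine signalling, from 3.21 to 6.71, Irf7 from 3.07 to 5.41 and Gbp2 from 5.08 to 7.99. Stat2, Jak1, Rfxap and Igtp were not called, and none of the 25 passed in a parental or haplotype comparison.

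Class II genes, which present to CD4 T cells, were called in 7 of 9 (median 0.32), without H2-DMb1 and H2-Ob. H2-Ea, the class II E alpha chain, had its lowest strain mean, 2.82, in BXD2/TyJ and its highest, 10.86, in SEA/GnJ. It was higher in DBA/2J than in C57BL/6J by 6.38 (limma, adjusted p = 1.68e-05), and in H2-d than in H2-b by 6.93 (adjusted p = 6.74e-07). H2-Eb1, the E beta chain, was lower in H2-q than in H2-b, with a difference of -3.82 (adjusted p = 0.0161). H2-Eb1, H2-Ab1 and H2-Aa ranged from 4.49 to 10.15, from 5.56 to 10.21 and from 3.85 to 9.54. Of the 33 other genes of the H2 region 22 were called (median 0.25). Glo1, glyoxalase, was higher in A/J by 1.73 (limma, adjusted p = 2.13e-05) and in C3H/HeJ by 1.26 (adjusted p = 0.00511). C4b, a complement component, ranged from 6.59 to 10.80, Ltb, lymphotoxin beta, from 2.94 to 6.48 and Hspa1b, a heat shock protein, from 5.91 to 8.58. Within families the 5 lists, in this order, had 2, 0, 1, 1 and 2 called genes in AXB/BXA, 5, 3, 6, 7 and 9 in BXD, and 2, 0, 0, 0 and 2 in BXH, of 15, 14, 25, 9 and 33 measured. The shares of all probe sets were 3.81%, 15.1% and 1.26%.

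The genes most like H2-D1, H2-K1, H2-Q10 and H2-T23 were ranked by Pearson correlation of strain means over 84 strains, leaving out the class I genes above and probe sets of several symbols. For H2-D1 1452544_x_at they were H2-Ea (0.69), Msh5 (0.55), Glo1 (0.53), Rcan2 (-0.49) and D930016D06Rik (-0.46). For H2-Q10 they were H2-Ea (-0.57), Msh5 (-0.53), Rcan2 (0.47), Flot1 (0.46) and Abhd16a (0.46). For H2-K1 1427746_x_at the list held immune genes of the same chromosome, Psmb9 (0.76), H2-Q4 (0.76), Psmb8 (0.73), H2-M3 (0.73) and H2-T10 (0.71). For H2-T23 1449556_at it held H2-Ab1 (0.74), H2-T10 (0.68), H2-Eb1 (0.65), Cotl1 (0.62) and H2-DMa (0.62). Of the 16 different genes named, Cotl1 lies on chromosome 8 and D930016D06Rik had no chromosome in the annotation. The others lie on chromosome 17.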

How the data were processed

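Aorta RNA of 94 mouse strains was hybridised to 188 one-colour arrays. The deposited values are log2 expression per probe set and array, and per the submitters' processing notes they were made with GCOS and RMA; background correction and scaling between arrays were done at that stage, with parameters not given in the sources used here. Strain names came from the labels, and replicate numbers were given in accession order. The 89 control probe sets were left out, which left 22327. Symbols came from GEO's annotation of the platform, where 17783 probe sets had 1 symbol, 284 had several and 4260 were not listed. The members and gene lists were chosen with earlier results of these data known. All columns of array values belonged to samples of this series (0 others).

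Strain effects were tested with limma 3.58.1 in R 4.3.3 (F-test, empirical Bayes, Benjamini-Hochberg over all 22327 probe sets, threshold 0.05) in strains with 2 or more arrays, over the panel and within each family. The parental comparisons came from 1 fit of 186 arrays of 93 strains with 93 residual degrees of freedom. Haplotype comparisons used strain means. A strain was put on a parent's side, where the parents differed by at least 1, if every array was nearer that parent. Alternatives were the array-number run as a covariate, arrays centred on their medians, dim probe sets left out, marker scores as covariates, BXD32/TyJ included (it was left out otherwise), single arrays or strains left out, fits of 2 strains alone and, chosen after seeing the data, the 4 strains with disagreeing arrays left out.

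Every member probe set is named. From a gene list, at most 4 genes past the test with the largest standard deviation over strains are named, and those not past it where they were 5 or fewer. For likeness, the 5 genes of highest absolute correlation are named. On simulated data of 22327 features, the A/J comparison recovered 50.7% of changes of 1 on the log2 scale, 92.5% of 2 and 98.5% of 4. For the strain effect 94.0% were recovered at a strain standard deviation of 0.5 and 100% at 1. The number of arrays limits the precision of every value.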

Additional observations from a re-analysis of the deposited data

Results flagged for a closer look

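In groups of 4 to 10, 85 sets of values were searched for an array or strain that stood apart from the rest by Dixon's criterion, and 8 did. Chance flags about 1 in 20 such groups. In BXD19/TyJ, replicate 1 read 9.07 on H2-K1 1424948_x_at, against 7.84 to 7.95 in the other arrays, and 10.26 on H2-T23 1449556_at, against 8.43 to 8.72. This is 1 of the strains whose arrays disagreed. In BXH4/TyJ, replicate 4 read 6.71 on the shared probe set 1451683_x_at (others 6.52 to 6.53) and 7.76 on 1451931_x_at (others 7.49 to 7.52), and replicate 1 read 4.35 on H2-K1 1450534_x_at (others 3.81 to 3.87). In AXB19b/PgnJ, replicate 3 read 3.80 on H2-D1 1452544_x_at (others 3.40 to 3.42), and replicate 4 read 4.81 on H2-Q1 (others 2.95 to 3.26). Among the 5 H2-b strains, C57L/J stood apart on H2-T23 1419658_at, at 7.61 against 3.17 to 4.25.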

How the results depend on the processing

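The counts of class I calls for the strain effect (15), DBA/2J (4), H2-k (5), H2-d (3), H2-q (0) and the AXB/BXA (5) and BXH (7) families stayed within 1.5 times under every alternative run, single arrays or strains left out included. For single probe sets, the alternatives gave 1621 values on the same side of the threshold, 17 weaker, 4 stronger and 0 reversed. The A/J count was 2 in a fit of A/J and C57BL/6J alone and 3 to 4 with single arrays left out, against 4. The C3H/HeJ count was 2 in a fit of C3H/HeJ and C57BL/6J alone and 2 to 6 with single arrays left out, against 6, and was lowest without C3H/HeJ replicate 1. Where a strain was left with 1 array, that array was taken to vary like the other strains. The BXD count was 7 without BXD19/TyJ, against 4. With dim probe sets left out, 4 pairs of class I probe sets remained and 3 of them differed between strains, against 13 of 14. The fits of 2 strains rest on 5 arrays. The other causes were not tested. The array-number run could not be fitted as a covariate within BXD, because no BXD strain has arrays in both runs. No paired analysis was possible because the replicate numbers were given in accession order and carry no pairing across strains. Probe sequences were not used here, so that probe binding and transcript amount could not be separated, and for probe sets near the array's floor, such as H2-Q1 and H2-T23 1419658_at, low strains have no reliable order.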

Other observations

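BXD32/TyJ, which was left out of the main tests, had arrays at 4.01 and 3.69 on H2-D1 1452544_x_at and at 8.89 and 6.83 on H2-Q10. Both arrays lay on the C57BL/6J side for these probe sets.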
